A study of Mus musculus with 25 samples.

Results

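The cortex of APP/PS1 mice given (-)-Vestitol together with Salviolone was set against the cortex of APP/PS1 mice given vehicle, by bulk RNA sequencing. The comparison takes every library with either label, 5 combination libraries and 5 model control libraries, 10 of the 25 libraries sequenced. The combination mice received (-)-Vestitol at 2.5 mg/kg and Salviolone at 2.5 mg/kg, and the model control mice received vehicle. Both groups were male B6C3 mice of 6 months with the APP/PS1 genotype, injected into the peritoneum every day for 3 months. The 5 mice of a group were drawn at random from a larger group, and the replicate numbers of different groups were not described as litters or days. The other libraries came from APP/PS1 mice given (-)-Vestitol alone at 5 mg/kg, APP/PS1 mice given Salviolone alone at 5 mg/kg, and C57BL/6J wild type mice given vehicle, with 5 libraries in each group. They are used here for the spread and as context. The study's stated aim was to find the mechanism by which the pair of compounds acts together.

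(-)-Vestitol belongs to the isoflavans, a class of plant phenols, and Salviolone to the plant diterpenoids. APP/PS1 mice carry a mutant human amyloid precursor protein gene and a second mutant transgene, both under the mouse prion protein promoter, and they build up amyloid plaques ringed by activated microglia and astrocytes. They are a model of amyloid deposition, and neurofibrillary tangles are not a feature of them. A cortex dissection borders on the striatum, the basal forebrain and the choroid plexus, whose cells carry marker genes that cortex holds at low levels: acetylcholine-synthesising neurons in the basal forebrain, opioid peptide neurons in the striatum, and neuropeptide neurons in the hypothalamus. The immediate-early genes are a further class described below. They are transcribed within minutes of neuronal firing, and many of their products feed back on the signalling that switched them on.

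Total counts were 71606813 to 109776852 in combination libraries and 77772965 to 93132986 in control libraries. A count of 0 then allows up to 3 counts, or 0.0273 to 0.0419 CPM (counts scaled to a common library size) in a combination library and 0.0322 to 0.0386 CPM in a control library, for counting error only. Other transcripts separated libraries within or between the groups. Transcripts known from intestinal epithelium, 12 genes such as Lypd8, Dmbt1 and Muc3, summed to 0.294 to 0.618 CPM in the 5 combination libraries. In control libraries 1 to 5 they summed to 27.3, 24.5, 33.1, 0.0771 and 0.333 CPM, so 3 control libraries held them and 2 did not. All 5 vestitol, all 5 wild type and 1 of the 5 salviolone libraries also held them, which gave 14 libraries with and 11 without, and a gap between 0.916 and 10.6 CPM. Choroid plexus markers were high in control libraries 4 and 5. Folr1, a folate receptor of choroid plexus epithelium, measured 2.53 and 2.37 CPM there, against 0.0996 to 0.378 CPM in combination libraries. Ventral forebrain markers, described next, separated the groups themselves. Each count of called genes was therefore also obtained without the libraries concerned or with the feature as a term in the model. The intestinal settings and leaving out libraries for choroid plexus markers were chosen after the data were seen. The region scores were planned with earlier results of these data known.

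With all 25 libraries in the fit, 2471 of 16515 genes tested (15.0%) differed between combination and model control libraries at an adjusted p under 0.05 (edgeR's quasi-likelihood test, Benjamini-Hochberg adjustment). Of these, 1293 genes (7.83%) were higher and 1178 genes (7.13%) were lower in combination libraries. The changes were small: the median size was 0.41 on the log2 scale, 760 genes passed 1.5-fold and 313 genes (12.7% of those called) passed 2-fold. In 2088 genes (12.6%) the groups did not overlap, with every combination library above every control library for 1164 genes (7.05%) and below for 924 genes (5.59%). The same fit called 0 genes for vestitol against model control, where 1249 genes had an unadjusted p under 0.05, and 4 genes for salviolone against model control. It called 3609 genes for combination against vestitol, 2954 for combination against salviolone, and 1913 for model control against wild type. Several of these comparisons share libraries, so they are not independent.

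The count depended on which libraries entered. Leaving out combination libraries 3, 4 and 5, the 3 deepest, left 914 genes, and leaving out control libraries 4 and 5, those with choroid plexus markers, left 1035 genes. In both settings all 2471 genes kept the sign of their change. Without the 3 deepest libraries their median size was 0.411 and their median standard error 0.135. Without control libraries 4 and 5 these were 0.37 and 0.116, and with every library 0.405 and 0.101. With the presence of intestinal transcripts as a term, 1642 genes were called, and 2461 of the 2471 genes kept the sign of their change. In the 11 libraries without intestinal transcripts, which set the 5 combination libraries against control libraries 4 and 5, 1988 genes were called, and 1607 of them were among the 2471 with the same sign. Control libraries 4 and 5 were thus both the controls high in choroid plexus markers and the only controls without intestinal transcripts. Leaving them out set combination libraries without these transcripts against controls that all held them. These settings therefore cannot tell the 2 features apart.

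**Figure D1:**
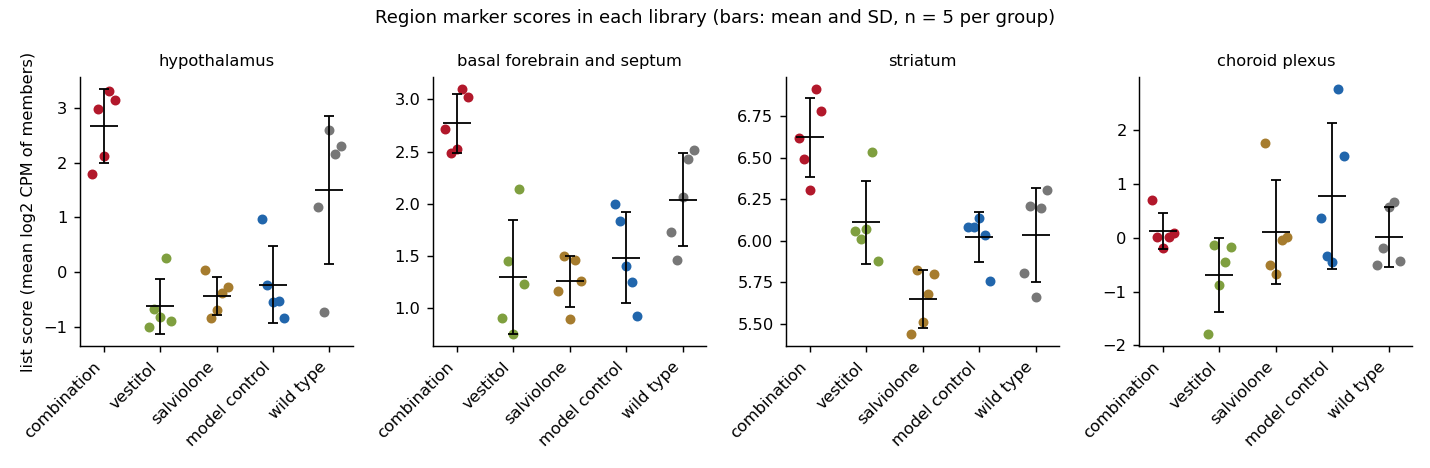
Mean log2 CPM of the tested members of 4 marker lists in each library, by group (points: libraries; bars: mean and SD, n = 5). The combination libraries lay above every model control library for hypothalamus, basal forebrain and septum, and striatum markers, while control library 4, salviolone library 1 and control library 5 stood highest for choroid plexus markers, at 2.76, 1.76 and 1.53.

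Markers of regions below the cortex were higher in combination libraries, and most strongly those of the hypothalamus. Of 25 hypothalamus markers, 23 were tested, 19 were raised and 0 were lowered, with a median log2 change of 2.88 against 0.0037 over all genes tested. Their mean log2 CPM, called the hypothalamus score here, was 1.79, 2.99, 2.13, 3.31 and 3.14 in combination libraries 1 to 5. In control libraries 1 to 5 the score was 0.97, -0.23, -0.55, -0.52 and -0.83, with library 1 the highest. The groups did not overlap, and their means were 2.67 ± 0.67 in combination and -0.23 ± 0.70 in control libraries (SD, n = 5 each). The summed level of the 23 markers was 588 to 1031 CPM in combination libraries and 169 to 395 CPM in control libraries, and 1 of the 23 lay under the limit of 3 counts in all 5 control libraries. The score also spread widely among vehicle-treated wild type mice, at 1.18, -0.73, 2.60, 2.17 and 2.30 in libraries 1 to 5, so wild type library 2 lay among the model controls, library 1 between the groups, and libraries 3 to 5 within the combination range. Wild type library 3, the highest of the 5, also stood apart by a pituitary score of 5.84, against -2.04 or lower in each of the other 24 libraries, with 399.6 CPM of the prolactin gene Prl and 85.9 CPM of Pomc. Without it in the fit 2626 genes were called for combination against model control. In these bulk samples a change in the number of cells of a type and a change in RNA per cell cannot be told apart.

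Hap1, which encodes a huntingtin-associated trafficking protein enriched in the hypothalamus (chr11:100238153-100246954, mm39), measured 209, 213, 171, 231 and 199.6 CPM in combination libraries. It measured 119, 52.4, 63.99, 50.9 and 45.2 CPM in control libraries. The groups did not overlap, although control library 1 stood well above the other 4 (log2 change 1.62 ± 0.30 SE, adjusted p = 0.00114). Zcchc12, a transcriptional co-activator gene, had 156, 154, 121, 196 and 168 CPM in combination and 83.7, 38.2, 38.5, 33.1 and 24.2 CPM in control libraries. Here too control library 1 was apart from the other controls and below every combination library (log2 change 1.87 ± 0.32, adjusted p = 0.000785). Magel2, an imprinted gene of hypothalamic neurons, had 10.9, 13.01, 8.82, 20.4 and 18.01 CPM in combination and 4.04, 2.28, 1.42, 1.34 and 1.39 CPM in control libraries, again without overlap (log2 change 2.76 ± 0.44, adjusted p = 0.000428). Nts, the gene of the peptide neurotensin, measured 5.72, 6.45, 4.23, 10.9 and 6.29 CPM in combination and 2.45, 0.387, 0.315, 0.514 and 0.103 CPM in control libraries (log2 change 3.16 ± 0.67, adjusted p = 0.00275). Its groups were apart, and control library 1 was the nearest control. Nts is counted here in the hippocampus list, not in the hypothalamus list.

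The neuropeptide genes Hcrt, Pmch and Oxt, active chiefly in the hypothalamus, varied greatly within the combination group. Hcrt, the orexin precursor gene, had 0, 0.925, 3.48, 21.03 and 27.6 CPM in combination libraries and 0, 0, 0.118, 0 and 0.141 CPM in control libraries. Pmch, the melanin-concentrating hormone gene, had 0.101, 4.47, 11.6, 21.8 and 27.8 CPM in combination libraries and 1.26, 0.0861, 0.0525, 0 and 0 CPM in control libraries. Both were at or near 0 in combination library 1 and highest in combination libraries 4 and 5. Oxt, the oxytocin gene, had 0.793, 4.46, 1.74, 8.63 and 8.47 CPM in combination libraries and 0.508, 0.0968, 0, 0.321 and 0.0513 CPM in control libraries, without overlap. All 3 passed the test with every library in the fit (adjusted p = 0.00892, 0.0125 and 0.0113 for Hcrt, Pmch and Oxt). None passed without control libraries 4 and 5 (adjusted p = 0.0677, 0.0961 and 0.0817). No fold change is given, since most control libraries lie near the limit of 3 counts.

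The basal forebrain and septum list had 8 raised and 0 lowered of 12 tested members, with a median log2 change of 1.29. Its score was 2.49 to 3.10 in combination and 0.93 to 2.00 in control libraries, without overlap. Chat, which encodes the enzyme that makes acetylcholine, measured 18.9, 12.6, 12.3, 21.4 and 19.01 CPM in combination libraries and 8.40, 7.12, 7.07, 6.32 and 4.31 CPM in control libraries. Every combination library lay above every control library (log2 change 1.34 ± 0.24, adjusted p = 0.00081). Slc18a3, the vesicular acetylcholine transporter gene, lies inside the Chat locus, so the counting may split reads between them. It had 6.95, 6.31, 5.08, 8.70 and 8.14 CPM in combination and 2.69, 2.19, 2.68, 1.66 and 1.80 CPM in control libraries, also apart (log2 change 1.67 ± 0.32, adjusted p = 0.00104). Chat and Slc18a3 mark cholinergic neurons in general, those of the striatum included. With the striatum score as a covariate neither passed, at log2 changes of 0.46 and 0.75 (adjusted p = 0.228 and 0.232).

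The striatum list had 19 raised and 0 lowered of 25 tested members, with a median log2 change of 0.58, smaller than in the other lists of ventral regions. Its score was 6.62, 6.50, 6.31, 6.91 and 6.78 in combination libraries and 6.08, 6.09, 6.14, 6.04 and 5.76 in control libraries 1 to 5. The groups did not overlap, and control library 5 lay below the other controls. Pdyn, the prodynorphin gene, measured 70.7, 73.7, 53.2, 85.7 and 79.9 CPM in combination and 49.9, 40.05, 41.8, 38.8 and 40.3 CPM in control libraries (log2 change 0.79 ± 0.11, adjusted p = 0.000146). Meis2, a transcription factor of striatal projection neurons, had 142, 137, 129, 163 and 160.2 CPM in combination and 112, 98.7, 97.6, 100.3 and 83.01 CPM in control libraries (log2 change 0.57 ± 0.09, adjusted p = 0.000272). Both genes separated the groups completely. Ppp1r1b, which encodes the dopamine-regulated phosphoprotein DARPP-32, had 550.0, 499, 436, 638 and 608 CPM in combination and 366, 351, 409, 348 and 293 CPM in control libraries, also without overlap (log2 change 0.63 ± 0.13, adjusted p = 0.00215). The dopamine receptor gene Drd2 passed (log2 change 0.63 ± 0.19, adjusted p = 0.0277), while Drd1 had a log2 change of 0.28 ± 0.54 (adjusted p = 0.792). The thalamus list did not follow: 1 of its 16 tested members was raised (Calb2) and 2 were lowered (Kitl and Rora), and without combination library 1, 4 or 5 or control library 2 only 1 was lowered. With every library 18.8% of this list was called, against 15.0% of all genes tested. Hippocampus markers had 4 raised and 1 lowered of 16, and 7 raised without control library 1.

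With fewer libraries the 3 ventral lists kept their direction, and most of their counts fell. Without control libraries 4 and 5, 8 hypothalamus, 4 basal forebrain and septum, and 10 striatum markers were raised and 0 lowered. Without the 3 deepest combination libraries the raised members numbered 7, 4 and 10 in that order of lists, and in the 11 libraries without intestinal transcripts they numbered 14, 9 and 17. Defining markers of the choroid plexus went the other way: 1 member was raised (Prlr) and 4 were lowered (Enpp2, Folr1, F5 and Slc4a5) of 15, with 0 lowered and 2 raised once control libraries 4 and 5 were out. The lowered members also numbered 2 without combination library 2, 4 or 5 and 1 without control library 4. The raised member was lost without combination library 4 or 5 or control library 1, 2, 3 or 5.

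**Figure D2:**
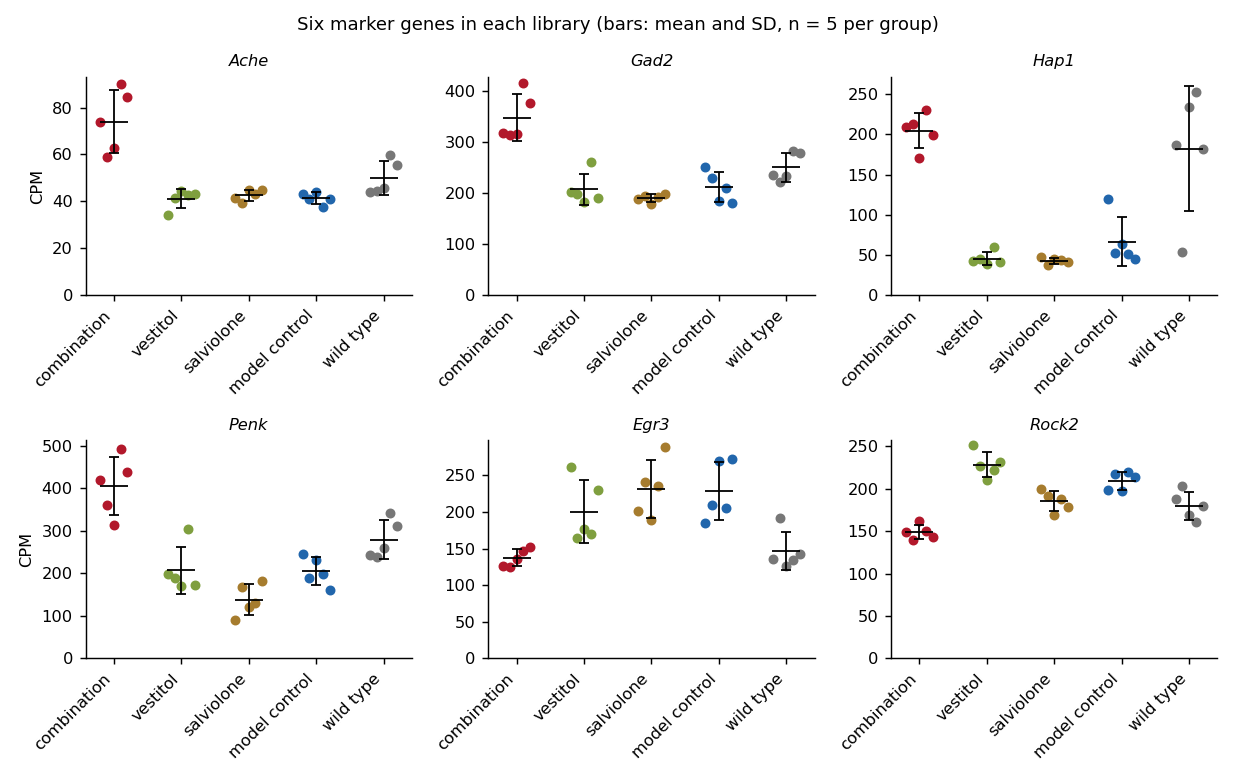
CPM of Ache, Gad2, Hap1, Penk, Egr3 and Rock2 in each library, by group (points: libraries; bars: mean and SD, n = 5). The combination libraries lay above all 5 model control libraries for the first 4 genes and below all 5 for Egr3 and Rock2. These genes were chosen with earlier results of these data known.

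The 6 genes that mark the comparison, Ache, Gad2, Hap1, Penk, Egr3 and Rock2, all passed the test, 4 upward and 2 downward. They were chosen with earlier results of these data known, so their passing is not independent evidence. Ache encodes acetylcholinesterase, the enzyme that breaks down acetylcholine (chr5:137285781-137292728, mm39). It measured 73.8, 58.9, 62.7, 90.1 and 84.3 CPM in combination libraries and 43.1, 40.8, 44.04, 37.4 and 40.8 CPM in control libraries. The lowest combination library stood above the highest control (log2 change 0.84 ± 0.10, adjusted p = 5.55e-05). Gad2 encodes an enzyme that makes the inhibitory transmitter GABA (chr2:22512217-22583886). It had 318, 315, 315, 415 and 376 CPM in combination and 252, 230.2, 185, 210.0 and 181 CPM in control libraries. Again the groups did not overlap (log2 change 0.72 ± 0.10, adjusted p = 0.000152). Penk encodes the enkephalin precursor of striatal neurons (chr4:4133531-4138819). It had 420.0, 361, 315, 492 and 439 CPM in combination and 245, 189.7, 232, 197 and 162 CPM in control libraries, also apart (log2 change 0.98 ± 0.19, adjusted p = 0.00133). Its change was 0.01 in vestitol and -0.57 in salviolone against model control (adjusted p = 0.997 and 0.239).

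Egr3 encodes an activity-induced zinc finger transcription factor (chr14:70314652-70319999, mm39). It measured 127, 125, 136, 146 and 152 CPM in combination libraries and 185, 209.5, 269.5, 206 and 272 CPM in control libraries. Every combination library was below every control library (log2 change -0.74 ± 0.15, adjusted p = 0.00163). Rock2 encodes a kinase that acts on the actin cytoskeleton (chr12:16944896-17037824). It had 149.5, 140.2, 162, 150.2 and 143 CPM in combination and 199, 218, 198, 220.0 and 214 CPM in control libraries, with a narrow spread in each group and no overlap (log2 change -0.49 ± 0.06, adjusted p = 5.55e-05). Wild type libraries 1 to 5 had 136, 192, 126, 135 and 143 CPM of Egr3 and 187, 53.8, 234, 253 and 182 CPM of Hap1. Wild type library 2, whose hypothalamus score was -0.73, was the highest of the 5 for Egr3 and the lowest for Hap1, itself a member of that score.

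The hypothalamus score and the group cannot be told apart by comparing the 2 groups alone, since the score did not overlap between them. With the score as a covariate over all 25 libraries, edgeR's quasi-likelihood test called 0 genes for combination against model control, and 988 genes had an unadjusted p under 0.05. DESeq2 with the same covariate called 53 genes, and limma-voom called 0. For the 2471 genes called without it, the median size of the change was 0.158 with the covariate and 0.405 without, and the median standard error was 0.145 with it and 0.101 without. The sign was the same for 87.3% of them. With the striatum score as the covariate 145 genes were called, and with the hypothalamus, striatum, thalamus and choroid plexus scores together 0. Since edgeR called 0 genes with the hypothalamus score, all 6 genes above lost their call: the log2 change became 0.58 ± 0.16 for Ache, 0.30 ± 0.12 for Gad2, 0.17 ± 0.25 for Hap1, 0.52 ± 0.27 for Penk, -0.28 ± 0.21 for Egr3 and -0.30 ± 0.09 for Rock2 (adjusted p = 0.72, 0.806, 0.959, 0.852, 0.898 and 0.735 in that order). Hap1 is itself a member of the hypothalamus score, so its value is adjusted partly for its own level. Every list described in the following paragraphs therefore had 0 members called in edgeR with this covariate, but the medians of the lists did not all move toward 0. The median log2 change of the interferon response list was -0.57 with the covariate and -0.48 without, that of the mitochondrially encoded genes -0.53 with and -0.33 without, and that of the choroid plexus list -1.19 with and -0.74 without. Calcium signalling genes had a median of 0.07 with it and -0.08 without, oligodendrocyte precursor genes -0.03 and 0.24, and plaque-associated microglia genes 0.004 and -0.04. The striatum median was 0.48 with it and 0.58 without, and the basal forebrain and septum median 0.43 and 1.29. Deep layer markers had 0.12 with it and 0.11 without, interneuron genes 0.11 and 0.05, GABA-A receptor genes -0.02 and -0.06, excitatory synapse genes -0.001 and -0.06, genes of the Rock1 and Rock2 pathway -0.03 and -0.004, and ribosomal protein genes 0.06 and 0.14.

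**Figure D3:**
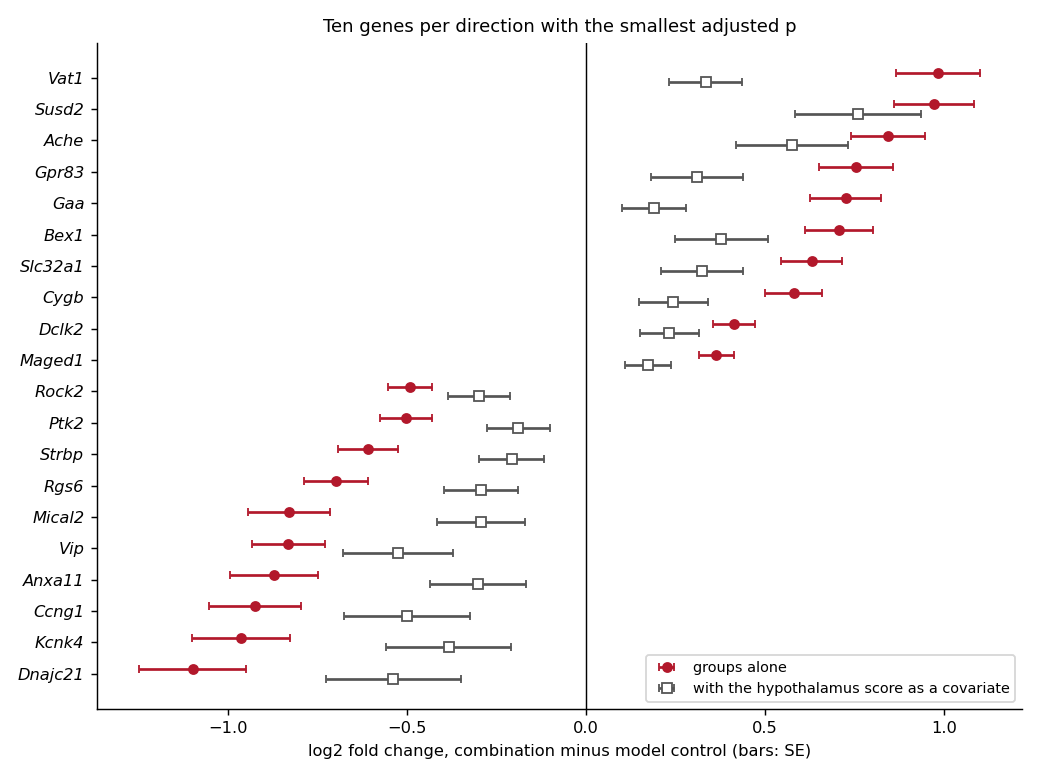
Log2 change, combination minus model control, of the 10 raised and 10 lowered genes with the smallest adjusted p (bars: SE), from the groups alone (filled points) and with the hypothalamus score as a covariate (open squares). Every open square lies nearer 0 than its filled point, and Susd2, at 0.76 ± 0.18, stays farthest above 0.

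Among genes with a mean log2 CPM of at least 1, the 10 raised genes with the smallest adjusted p were Susd2, Vat1, Ache, Bex1, Maged1, Slc32a1, Cygb, Gpr83, Gaa and Dclk2. All 10 separated the groups without overlap, and their log2 changes ran from 0.36 (Maged1) to 0.98 (Vat1). Susd2 (chr10:75472540-75479825, mm39), which encodes a sushi domain membrane protein, had 24.7, 24.96, 24.6, 25.9 and 26.3 CPM in combination and 14.1, 12.1, 14.3, 12.04 and 11.9 CPM in control libraries. Both groups were tight and about 1 log2 unit apart (log2 change 0.97 ± 0.11, adjusted p = 5.55e-05). Vat1, named for a protein of synaptic vesicle membranes, had 74.1, 84.1, 68.02, 98.2 and 93.5 CPM in combination and 51.8, 40.1, 40.9, 39.8 and 38.8 CPM in control libraries, of which library 1 was highest (log2 change 0.98 ± 0.12, adjusted p = 5.55e-05). Slc32a1 encodes the transporter that loads GABA into vesicles and had 168, 159, 161, 210.0 and 188 CPM in combination and 125, 113, 119, 109.7 and 105 CPM in control libraries (log2 change 0.63 ± 0.09, adjusted p = 0.000146). Gaa, the lysosomal enzyme that breaks down glycogen, averaged 524 ± 51.9 CPM in combination and 317 ± 28.5 CPM in control libraries (SD, n = 5 each; log2 change 0.73 ± 0.10, adjusted p = 0.000146). The X-linked genes Bex1 and Maged1, the haem protein gene Cygb, the receptor gene Gpr83 and the kinase gene Dclk2 rose by 0.71, 0.36, 0.58, 0.75 and 0.41 on the log2 scale (adjusted p = 0.000146 for each of the 5). In DESeq2 with the hypothalamus score as a covariate, Susd2 was the only gene of the 20 with the smallest adjusted p that stayed called.

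In the other direction the smallest adjusted p-values belonged to Vip, Rock2, Rgs6, Strbp, Dnajc21, Ccng1, Mical2, Kcnk4, Ptk2 and Anxa11, the 10 lowered genes ranked first by adjusted p. Vip, the vasoactive intestinal peptide gene of a class of cortical interneurons, had 10.3, 11.3, 12.6, 8.80 and 11.8 CPM in combination and 18.3, 19.1, 20.2, 19.3 and 20.8 CPM in control libraries. The 2 groups did not overlap and varied little within themselves (log2 change -0.83 ± 0.10, adjusted p = 5.55e-05). Dnajc21, a J-domain co-chaperone gene, had 16.4, 17.5, 21.1, 19.3 and 17.9 CPM in combination and 32.8, 43.4, 38.6, 36.02 and 46.5 CPM in control libraries, the largest change of the 10 (log2 change -1.10 ± 0.15, adjusted p = 0.000146). Kcnk4, which encodes a leak potassium channel, had 8.73, 11.5, 12.8, 9.42 and 11.5 CPM in combination and 16.9, 19.3, 24.5, 21.2 and 23.4 CPM in control libraries (log2 change -0.96 ± 0.14, adjusted p = 0.000146). Mical2, an actin-oxidising enzyme gene, averaged 322 ± 36.9 CPM in combination and 573 ± 92.4 CPM in control libraries (SD, n = 5 each; log2 change -0.83 ± 0.11, adjusted p = 0.000146). Rgs6, a regulator of G protein signalling, fell by 0.70 on the log2 scale and the focal adhesion kinase gene Ptk2 by 0.50 (adjusted p = 7.85e-05 and 0.000146). The RNA-binding protein gene Strbp fell by 0.61, the cyclin G1 gene Ccng1 by 0.92 and the annexin gene Anxa11 by 0.87 (adjusted p = 0.000146 for each of the 3). In vestitol and in salviolone libraries against model control, the log2 changes of these 10 genes lay between -0.24 and 0.19 and none was called.

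**Figure D4:**
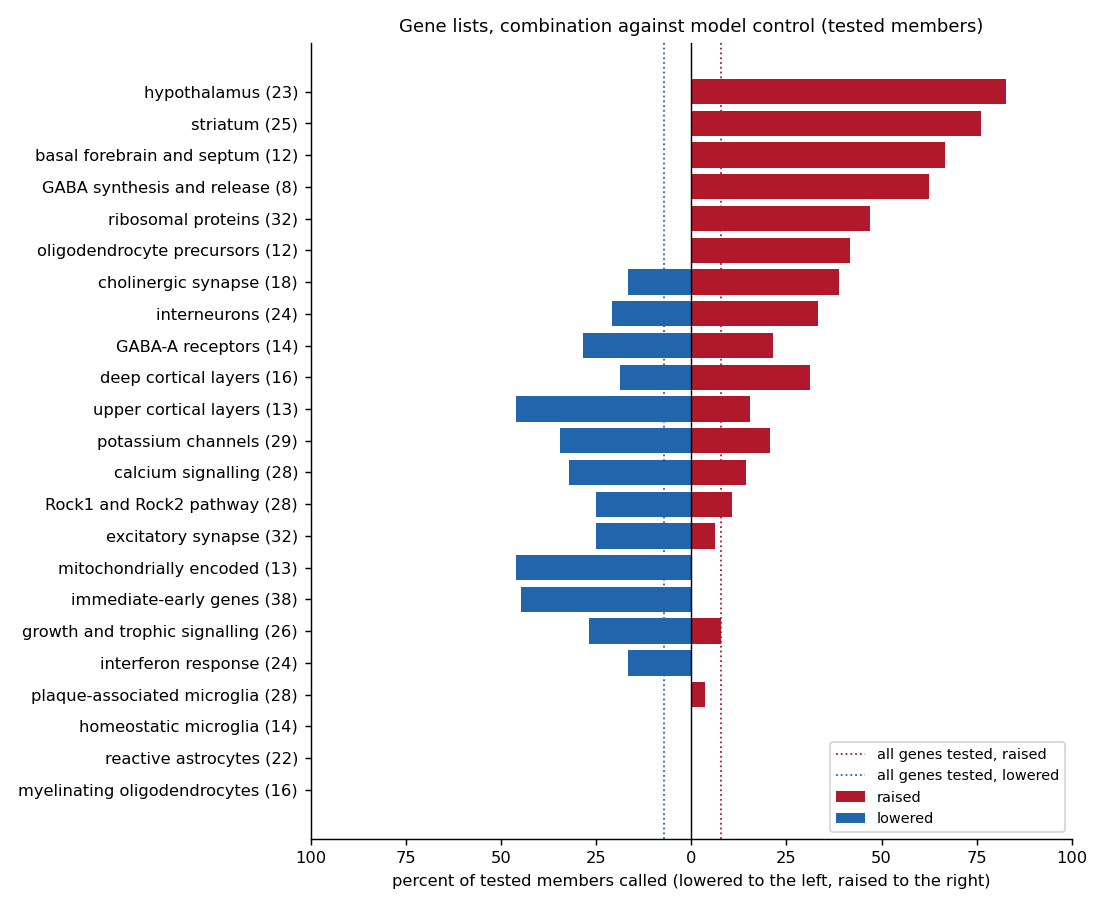
Percent of the tested members of 23 gene lists called raised (to the right) or lowered (to the left) in combination against model control libraries, with the number tested in brackets. Dotted lines mark the shares over all genes tested, 7.83% raised and 7.13% lowered; the 3 ventral region lists extend far to the right and the immediate-early genes to the left.

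The list of GABA synthesis and release, which also holds genes of GABA uptake and breakdown, had raised and no lowered members, while the interneuron and GABA-A receptor lists were split. Of its 8 genes, 5 were raised and 0 lowered, among them Gad2 for synthesis, Slc32a1 for vesicle loading, Abat for breakdown and Slc6a11 for uptake, with a median log2 change of 0.47 (0.16 with the hypothalamus score). Abat, which breaks GABA down, averaged 514 ± 39.4 CPM in combination and 375 ± 28.3 CPM in control libraries (SD, n = 5 each; log2 change 0.45 ± 0.07, adjusted p = 0.000154). Of 24 interneuron genes, 8 were raised and 5 lowered. Sst, the somatostatin gene, had 116, 108, 93.6, 100.4 and 110.3 CPM in combination and 86.1, 67.4, 89.5, 62.02 and 72.9 CPM in control libraries, without overlap (log2 change 0.48 ± 0.09, adjusted p = 0.000681). Reln, which encodes the secreted protein reelin, had 194, 210.2, 172, 175 and 187 CPM in combination and 145, 125, 132, 129 and 119 CPM in control libraries, also apart (log2 change 0.53 ± 0.10, adjusted p = 0.000908). Pvalb, the parvalbumin gene, had 28.03, 48.4, 52.4, 39.8 and 49.6 CPM in combination and 66.8, 101, 69.5, 70.2 and 80.1 CPM in control libraries (log2 change -0.83 ± 0.24, adjusted p = 0.0233). It lost its call without combination library 1 or 4, control library 2, or control libraries 4 and 5 (adjusted p = 0.0817). The 5 lowered interneuron genes became 2, 3 and 1 when combination libraries 1, 3 and 4 were left out in turn, and 2 without control library 2, 3 or 5. Without the 3 deepest combination libraries, as without control libraries 4 and 5, 3 genes of the GABA synthesis and release list were raised and 0 lowered, and 6 interneuron genes were raised and 1 lowered.

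Of 14 GABA-A receptor subunit genes, 3 were raised (Gabrq, Gabrg1 and Gabre) and 4 lowered, among them Gabrd and Gabrb2. Gabrq, a subunit known from the hypothalamus, had 6.73, 11.2, 5.39, 17.6 and 13.2 CPM in combination and 2.87, 0.678, 1.10, 0.411 and 0.359 CPM in control libraries (log2 change 3.32 ± 0.69, adjusted p = 0.00264). Its groups did not overlap, and control library 1 was nearest. The lowered subunits numbered 2 without combination library 1, 4 or 5 or control library 3, 4 or 5, and 1 without control library 2. The list had 1 raised and 0 lowered members without the 3 deepest combination libraries, and without control libraries 4 and 5 the counts were 2 and 1. Of 18 cholinergic genes, 7 were raised and 3 lowered (Chrm3, Lynx1 and Chrna5), with a median log2 change of 0.13 (0.21 with the hypothalamus score). The raised genes were Ache, Chat, Slc18a3, Slc5a7, Chrna7, Chrnb2 and Chrm5, of which Slc5a7 encodes the choline transporter. Both without the 3 deepest combination libraries and without control libraries 4 and 5, 4 cholinergic genes were raised and 0 lowered.

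Cortical layer markers moved in both directions. Of 13 upper layer markers, 2 were raised (Wfs1 and Otof) and 6 lowered, with a median log2 change of -0.34 (-0.02 with the hypothalamus score). Lamp5, a membrane protein gene of upper layer cells, had 143, 171, 154, 139 and 137 CPM in combination and 237, 318, 315, 324 and 372 CPM in control libraries, and no combination library reached the control range (log2 change -1.08 ± 0.18, adjusted p = 0.000521). Wfs1, a membrane protein gene of the endoplasmic reticulum, had 217, 214, 166, 229.8 and 195 CPM in combination and 122, 75.3, 115, 77.7 and 69.9 CPM in control libraries (log2 change 1.15 ± 0.19, adjusted p = 0.000513). Wild type libraries spread across both ranges: Lamp5 measured 165, 269.5, 108, 114 and 136 CPM in libraries 1 to 5, highest in library 2. Of 16 deep layer markers, 5 were raised (Nxph4, Bcl11b, Ntsr1, Oprk1 and Rprm) and 3 lowered (Tbr1, Fezf2 and Hs3st2). Nxph4, a neurexophilin gene of the deepest layer, averaged 7.36 ± 1.49 CPM in combination and 2.76 ± 0.880 CPM in control libraries (SD, n = 5 each; log2 change 1.42 ± 0.22, adjusted p = 0.000279). Bcl11b, a transcription factor shared by deep layer and striatal neurons, rose by 0.52 on the log2 scale, and Tbr1, a transcription factor of corticothalamic neurons, fell by 0.60 (adjusted p = 0.000938 and 0.000987). Without the 3 deepest combination libraries 1 upper layer marker was raised and 2 lowered, and 3 deep layer markers were raised and 1 lowered. Without control libraries 4 and 5 the counts were 1 and 3 for upper layers and 4 and 1 for deep layers.

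Genes of excitatory synapses, calcium signalling and potassium channels held lowered and raised members, and the counts depended on the libraries. Of 32 excitatory synapse genes, 2 were raised (Syn2 and Camk2b) and 8 lowered, with a median log2 change of -0.06. Grin2a, an NMDA receptor subunit gene, had 241, 277, 283, 215 and 235 CPM in combination and 332, 378, 358, 406 and 419.7 CPM in control libraries, without overlap (log2 change -0.60 ± 0.10, adjusted p = 0.00058). Nrgn, a calmodulin-binding protein of dendrites, had 595, 647, 632, 504 and 582 CPM in combination and 667, 754, 1006, 788 and 995 CPM in control libraries (log2 change -0.51 ± 0.10, adjusted p = 0.002). The groups were apart, by a narrow margin at control library 1. The scaffold gene Shank1 fell by 0.34 on the log2 scale (adjusted p = 0.00254). The lowered synapse genes numbered 5 without combination library 4 or 5, and the raised ones 1 without combination library 1, 4 or 5 or control library 1, 4 or 5. Of 28 calcium signalling genes, 4 were raised and 9 lowered, with 2 raised without combination library 2. Without the 3 deepest combination libraries the excitatory synapse list had 1 raised and 1 lowered, and the calcium signalling list 2 raised and 0 lowered. Without control libraries 4 and 5 they had 1 raised and 6 lowered, and 2 raised and 4 lowered. Cacna1h, a T-type calcium channel gene, averaged 133 ± 8.35 CPM in combination and 87.7 ± 8.61 CPM in control libraries (SD, n = 5 each; log2 change 0.60 ± 0.09, adjusted p = 0.000146). The ryanodine receptor genes, which release stored calcium, parted: Ryr3 rose by 0.56 and Ryr2 fell by 0.34 on the log2 scale (adjusted p = 0.00133 for both).

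Of 29 potassium channel genes, 6 were raised and 10 lowered, with a median log2 change of -0.19 (0.03 with the hypothalamus score). The counts were 2 and 5 without the 3 deepest combination libraries, and 4 and 8 without control libraries 4 and 5. Kcna5, a voltage-gated channel gene, had 10.9, 8.87, 8.06, 11.2 and 10.3 CPM in combination and 5.61, 4.03, 3.08, 3.88 and 3.93 CPM in control libraries, above them in every library (log2 change 1.27 ± 0.18, adjusted p = 0.000152). Kcnj9, an inwardly rectifying channel gene, had 176, 196, 204, 152 and 160.1 CPM in combination and 223, 268, 267, 256 and 271 CPM in control libraries, below them in every library (log2 change -0.53 ± 0.08, adjusted p = 0.000242). Among 14 pan-neuronal genes, 2 were raised (Gap43 and Uchl1) and 4 lowered (Nefl, Snap25, Nefm and Rbfox3). Snap25, a protein of vesicle fusion, averaged 1174 ± 84.96 CPM in combination and 1669.9 ± 132 CPM in control libraries (SD, n = 5 each; log2 change -0.51 ± 0.09, adjusted p = 0.000836). Nefl, the neurofilament light chain gene, fell by 0.27 and Gap43, a growth cone protein gene, rose by 0.77 on the log2 scale (adjusted p = 0.000708 and 0.00103).

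Immediate-early genes were lower in combination libraries: 0 of 38 were raised and 17 were lowered, against 7.13% of all genes tested, and their median log2 change was -0.55. The mean log2 CPM of the 38 genes was 4.57, 4.67, 4.41, 4.59 and 4.61 in combination libraries 1 to 5 and 4.70, 5.02, 5.35, 4.98 and 5.26 in control libraries 1 to 5. The groups were apart, but control library 1, which had the highest hypothalamus score of the controls, lay closest to the combination libraries. The summed level was 1577 to 1850.5 CPM in combination and 2053 to 3290.4 CPM in control libraries. With the hypothalamus score as a covariate the median was -0.16. Without control libraries 4 and 5, 5 genes were lowered, and without the 3 deepest combination libraries 4 were. In the 11 libraries without intestinal transcripts 16 were lowered.

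The 3 genes shown are the lowered immediate-early genes with the smallest p that had a window in RefSeq's promoter table (GRCm38.p6). Genes of 1 chromosome were passed over in this choice. All 3 encode phosphatases that switch off MAP kinases. Their windows are shown because of this rank by p, and each runs from 250 bases before to 50 bases after the annotated start, read in the direction of transcription. Capitals mark matches on either strand to TGACGTCA, the full cAMP response element, to the CArG box bound by serum response factor, or to TATAAA.
Dusp6, chr10:99262981-99263280, + strand: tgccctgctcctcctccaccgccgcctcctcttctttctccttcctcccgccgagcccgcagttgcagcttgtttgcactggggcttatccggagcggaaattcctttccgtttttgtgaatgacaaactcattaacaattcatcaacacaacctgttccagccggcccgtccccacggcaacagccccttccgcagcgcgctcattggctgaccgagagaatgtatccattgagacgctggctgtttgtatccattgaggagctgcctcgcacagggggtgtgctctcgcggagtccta
Dusp5, chr19:53528895-53529194, + strand: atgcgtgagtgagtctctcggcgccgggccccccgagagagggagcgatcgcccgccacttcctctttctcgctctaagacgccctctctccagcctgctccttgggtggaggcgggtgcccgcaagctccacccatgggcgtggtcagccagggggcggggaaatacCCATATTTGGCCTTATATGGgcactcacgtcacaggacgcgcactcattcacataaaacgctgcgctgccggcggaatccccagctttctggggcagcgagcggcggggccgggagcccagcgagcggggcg
Dusp1, chr17:26508423-26508722, - strand: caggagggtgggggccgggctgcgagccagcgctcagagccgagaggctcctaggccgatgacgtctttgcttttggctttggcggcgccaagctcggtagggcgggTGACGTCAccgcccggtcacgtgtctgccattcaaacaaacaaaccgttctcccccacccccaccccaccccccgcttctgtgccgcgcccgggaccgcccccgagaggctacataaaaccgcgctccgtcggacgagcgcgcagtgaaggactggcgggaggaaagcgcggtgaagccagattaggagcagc
The Dusp6 window held 0 matches, the Dusp5 window held 2 adjoining CArG boxes, and the Dusp1 window held 1 TGACGTCA. Of the 38 genes, 28 had a window, 11 of them lowered. TGACGTCA was in 1 of the 11 lowered genes' windows and in 588 of all 32851 windows (1.79%), the CArG box in 1 of 11 and in 535 of 32851 (1.63%), and TATAAA in 2 of 11 and in 4473 of 32851 (13.6%). Among the other 17 immediate-early genes with a window, TGACGTCA was in 1, the CArG box in 1 and TATAAA in 4 (23.5%, against 18.2% of the lowered genes). A match in these letters describes the window and says nothing of binding.

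**Figure D5:**
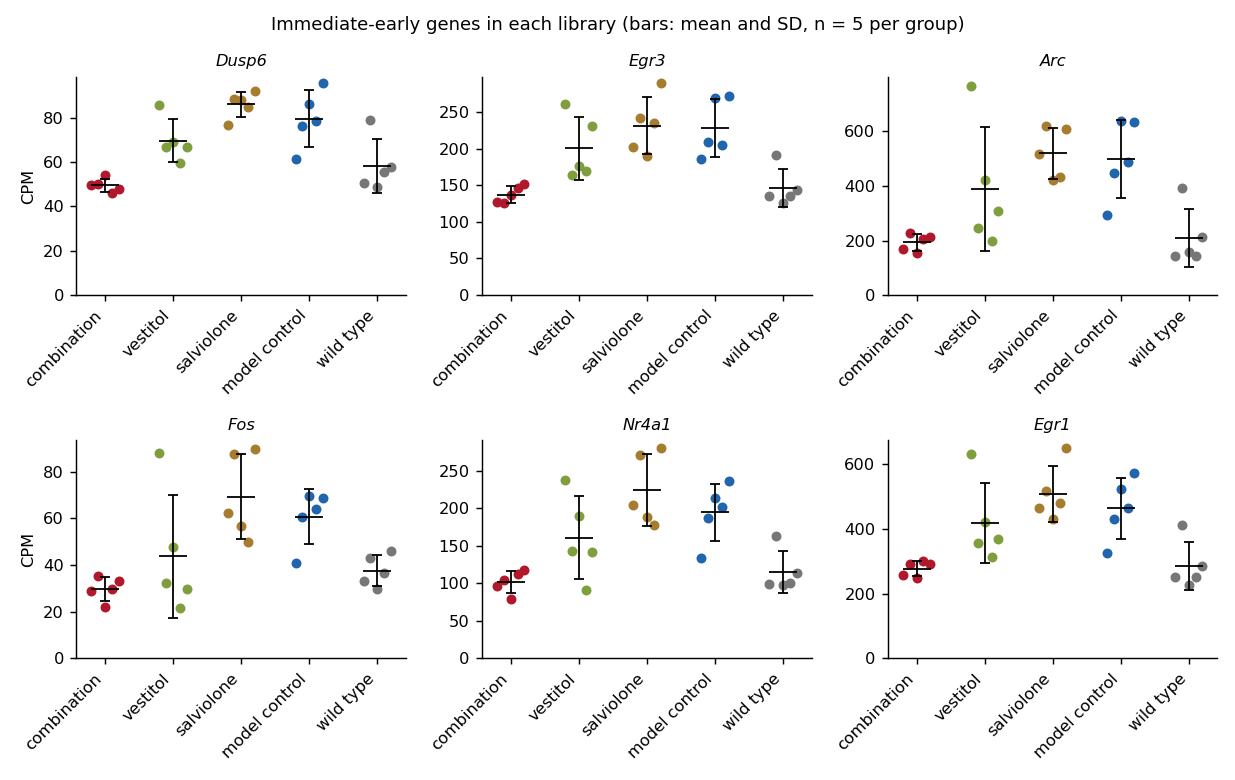
CPM of Dusp6, Egr3, Arc, Fos, Nr4a1 and Egr1 in each library, by group (points: libraries; bars: mean and SD, n = 5). Combination libraries lay below all 5 model control libraries for each gene.

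Dusp6, whose product acts on the kinase ERK, measured 49.6, 49.99, 54.1, 46.2 and 47.8 CPM in combination libraries and 61.5, 76.1, 86.1, 78.3 and 95.7 CPM in control libraries. The combination libraries were tight and below every control (log2 change -0.68 ± 0.12, adjusted p = 0.000513). Dusp5 had 9.10, 10.4, 8.54, 9.45 and 9.93 CPM in combination and 12.1, 18.3, 20.3, 16.8 and 18.5 CPM in control libraries (log2 change -0.86 ± 0.18, adjusted p = 0.00254). Dusp1 had 32.95, 41.1, 29.4, 31.7 and 33.1 CPM in combination and 41.7, 55.3, 61.05, 65.97 and 65.6 CPM in control libraries (log2 change -0.78 ± 0.17, adjusted p = 0.00391). Neither gene overlapped between the groups, by a narrow margin for Dusp1 at control library 1. Trib1, a pseudokinase gene, had 19.3, 19.6, 20.8, 16.4 and 20.3 CPM in combination and 25.9, 42.5, 44.4, 44.4 and 56.5 CPM in control libraries, with a wide spread among the controls (log2 change -1.15 ± 0.21, adjusted p = 0.00109).

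Arc, which encodes a protein that travels to active synapses, measured 169.7, 227, 154, 205 and 212 CPM in combination libraries and 294, 446, 637, 486 and 634 CPM in control libraries. The highest combination library was below the lowest control (log2 change -1.37 ± 0.33, adjusted p = 0.00812). Fos, a subunit of the AP-1 transcription factor, had 28.9, 35.5, 22.1, 29.6 and 33.4 CPM in combination and 41.1, 60.7, 69.6, 63.9 and 68.7 CPM in control libraries, also apart (log2 change -1.02 ± 0.28, adjusted p = 0.017). Nr4a1, an orphan nuclear receptor gene, fell by 0.94 and Egr1, a zinc finger transcription factor gene, by 0.74 on the log2 scale (adjusted p = 0.00542 and 0.00901). Bdnf, a growth factor induced by activity, had 19.1, 16.8, 16.2, 15.3 and 19.7 CPM in combination and 22.7, 17.9, 26.7, 19.8 and 26.9 CPM in control libraries. Its groups overlapped (log2 change -0.39 ± 0.11, adjusted p = 0.0158), and the call was lost without control library 5. Without control libraries 4 and 5, none of Arc, Fos, Nr4a1, Egr1, Dusp1 and Bdnf passed (adjusted p = 0.0602, 0.101, 0.0582, 0.0877, 0.0554 and 0.0711). Wild type libraries 1 to 5 measured 144, 394, 158, 145 and 213 CPM of Arc, so wild type library 2, with the lowest hypothalamus score of its group, lay in the control range. The other 4 wild type libraries lay below the highest combination library. For vestitol and salviolone against model control the log2 changes of Arc were -0.36 and 0.06 (adjusted p = 0.845 and 0.969).

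Around Rock2, 3 of 28 genes of the Rock1 and Rock2 pathway were raised (Rnd2, Limk2 and Arhgef28) and 7 lowered (Rock2, Pak1, Ppp1r12a, Rock1, Rnd1, Arhgef12 and Arhgef2), with a median log2 change near 0. Both kinase genes, Rock1 and Rock2, were among the lowered. The list had 2 raised and 2 lowered genes without the 3 deepest combination libraries, and without control libraries 4 and 5 1 was raised and 4 lowered. Rnd2, a small GTPase gene, had 91.3, 91.02, 89.2, 96.2 and 95.2 CPM in combination and 75.3, 71.5, 69.3, 62.4 and 65.3 CPM in control libraries, without overlap (log2 change 0.43 ± 0.07, adjusted p = 0.000428). Pak1, a kinase that acts on actin, had 341, 379.7, 368, 323 and 328 CPM in combination and 389, 459.9, 459, 475 and 464 CPM in control libraries, of which library 1 was the lowest (log2 change -0.37 ± 0.07, adjusted p = 0.00124). Rhoa, the GTPase that activates both kinases, averaged 136 ± 2.87 CPM in combination and 136 ± 2.63 CPM in control libraries (SD, n = 5 each; log2 change 95% interval -0.09 to 0.09, adjusted p = 0.993). Of 26 genes of growth and trophic signalling, 2 were raised, Fgfr1 among them, and 7 lowered, including the phosphoinositide 3-kinase genes Pik3r1 and Pik3ca, which fell by 0.29 and 0.39 on the log2 scale (adjusted p = 0.00133 and 0.00137).

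The genes that report the transgenes did not pass the test. App, which can collect reads of the mutant transgene as well as of the mouse gene, measured 3675, 3776, 4169, 3733 and 3439 CPM in combination, 3897, 3903, 4295, 4579 and 4634 CPM in control and 1383 to 1800.0 CPM in wild type libraries. The combination and control libraries overlapped (log2 change -0.18 ± 0.07, 95% interval -0.33 to -0.03, adjusted p = 0.104). Prnp, whose promoter drives the transgenes, had 1666, 1604, 1818, 1591 and 1417 CPM in combination and 1770.0, 1656, 1938, 2028 and 1888 CPM in control libraries (log2 change -0.20 ± 0.07, adjusted p = 0.0519). Every transgenic library stood far above the wild type range of 591 to 699.5 CPM. Without combination library 3 both genes passed the test as lowered, and Prnp also passed without control library 1 or without control library 2. Prnp, close to the threshold, passed as well in DESeq2 (adjusted p = 0.0365), in limma-voom (adjusted p = 0.0319) and with the replicate block (adjusted p = 0.0493). With the hypothalamus score as a covariate App was at 0.05, in the opposite direction, and Prnp at -0.03 (adjusted p = 0.979 and 0.989). In the 11 libraries without intestinal transcripts both passed too, App with an adjusted p = 0.00849 and Prnp with 0.0233.

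Amyloid lists were called at about the share of all genes tested, 15.0%. Of 19 amyloid processing genes, 4 were called (21.1%), with 1 raised (Aplp1) and 3 lowered (Adam9, Sorl1 and Apba1), and 5 were lowered without combination library 3. Adam9, an alpha-secretase candidate, had 57.6, 57.1, 67.1, 64.3 and 62.7 CPM in combination and 73.8, 75.7, 78.6, 80.2 and 76.4 CPM in control libraries, without overlap (log2 change -0.32 ± 0.06, adjusted p = 0.000734). Sorl1, a sorting receptor for the amyloid precursor protein, had 471, 621, 528, 466 and 561 CPM in combination and 642, 826, 679.5, 715 and 753 CPM in control libraries, also lower in every library (log2 change -0.45 ± 0.10, adjusted p = 0.00459). Of 18 amyloid clearance genes, 3 were raised (16.7%; Ece2, Clu and Lpl) and 0 lowered, and 1 was lowered without control library 1, 3 or 5. Clu, the secreted chaperone clusterin, had 785, 753, 732, 788 and 792 CPM in combination and 690.4, 681, 678, 649 and 665 CPM in control libraries, above them in every library by a small step (log2 change 0.20 ± 0.05, adjusted p = 0.0149). Its call was lost without control libraries 4 and 5 (adjusted p = 0.114). Among 24 tau and tau kinase genes, Mapk3 was raised and Mapk10, Mapk8 and Ttbk1 were lowered (16.7% called).

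Of 28 genes of plaque-associated microglia, 1 was raised and 0 lowered (3.57% called, against 15.0% of all genes tested), with a median log2 change of -0.04. The gene was Lpl, a lipoprotein lipase, at 47.8, 32.7, 27.9, 29.8 and 26.2 CPM in combination and 25.4, 20.3, 28.4, 22.3 and 19.1 CPM in control libraries (log2 change 0.51 ± 0.17, adjusted p = 0.0437). Its groups overlapped, and the call was lost when combination library 1, 2 or 4 or control library 2, 4 or 5 was left out. Without combination library 3, 1 gene of the list was lowered, and without control library 1, 2 were. Cst7, a protease inhibitor gene strongly induced around plaques, had 9.13, 3.42, 13.3, 17.6 and 11.4 CPM in combination, 6.83, 12.7, 15.4, 12.5 and 12.5 CPM in control and 0.0730 to 0.277 CPM in wild type libraries. Combination and control libraries overlapped fully, and the interval of the log2 change, -0.76 to 0.51, left room for a change either way (adjusted p = 0.841). The lipid-sensing receptor gene Trem2 had a log2 change of -0.16 ± 0.16 (95% interval -0.48 to 0.17, adjusted p = 0.578), and the integrin gene Itgax one of -0.29 ± 0.31 (95% interval -0.93 to 0.36, adjusted p = 0.604). Combination library 2 had the lowest value of its group for Cst7 and Trem2.

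Homeostatic microglia (14 genes), reactive astrocytes (22), myelinating oligodendrocytes (16), endothelium (12) and ependyma (13) had 0 members called. Some counts changed when a single library was left out: 1 homeostatic gene was raised without control library 3 or 4, 1 reactive astrocyte gene was raised without combination library 3, 5 myelin genes were lowered without control library 3, 1 endothelial gene was raised without control library 1, and 1 ependymal gene was raised without control library 1 and 1 lowered without control library 3. Gfap, the intermediate filament gene of reactive astrocytes, had 391, 339, 496, 527 and 460.5 CPM in combination and 455, 426, 509, 496 and 403 CPM in control libraries (log2 change -0.05 ± 0.15, 95% interval -0.35 to 0.25, adjusted p = 0.872). Of 14 general astrocyte markers, 1 was raised (Ntsr2) and 1 lowered (Slc1a2), with a median log2 change of 0.11. That is 14.3% called, near the 15.0% of all genes tested. Ntsr2, a neurotensin receptor gene, had 52.04, 64.5, 55.5, 65.7 and 71.02 CPM in combination and 51.4, 49.9, 50.7, 49.9 and 44.8 CPM in control libraries, above them by a narrow margin (log2 change 0.32 ± 0.11, adjusted p = 0.0434). Its call was lost without combination library 2, 4 or 5 or control library 2, 3, 4 or 5. Slc1a2, the main glutamate transporter of astrocytes, was lower without overlap, at 2642, 2666, 2892, 2415 and 2755 CPM in combination and 3214, 3391, 3628, 3271 and 3221 CPM in control libraries (log2 change -0.32 ± 0.06, adjusted p = 0.00102). Oligodendrocyte precursor genes had 5 raised (C1ql1, Pdgfra, Lhfpl3, Gpr17 and Bcan) and 0 lowered of 12. The 5 became 1 without the 3 deepest combination libraries or without control libraries 4 and 5, 3 without combination library 1 or 4 or control library 2, and 2 without control library 4. C1ql1, a secreted C1q-like protein gene, averaged 7.17 ± 0.946 CPM in combination and 3.72 ± 0.938 CPM in control libraries (SD, n = 5 each; log2 change 0.95 ± 0.17, adjusted p = 0.000732).

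Of 17 complement genes, 0 were raised and 2 lowered (11.8% called, against 15.0% of all genes tested). C1ra, a protease of the first complement component, had 2.01, 1.99, 3.38, 2.15 and 3.44 CPM in combination and 6.54, 7.45, 5.50, 9.28 and 10.8 CPM in control libraries, highest in control libraries 4 and 5 (log2 change -1.61 ± 0.32, adjusted p = 0.00177). Its neighbour C1s1 had 1.20, 1.65, 1.77, 0.988 and 2.39 CPM in combination and 2.44, 3.09, 2.81, 4.18 and 5.25 CPM in control libraries (log2 change -1.15 ± 0.31, adjusted p = 0.0132). The groups were apart for both genes, and without control libraries 4 and 5 C1ra still passed (adjusted p = 0.0334) while C1s1 did not (adjusted p = 0.18). Of 24 interferon response genes, 4 were lowered (Ifit1, Ifit2, Gbp3 and Trim30a) and 0 raised, with a median log2 change of -0.48. That is 16.7% called, near the share of all genes tested, of which 7.13% were lowered. Ifit1, an antiviral effector gene, had 1.26, 1.06, 2.35, 1.90 and 1.10 CPM in combination and 2.96, 3.35, 2.20, 2.38 and 4.77 CPM in control libraries, which overlapped (log2 change -1.02 ± 0.25, adjusted p = 0.00699). The lowered genes of this list numbered 2 without control library 5 and 0 without control libraries 4 and 5, where the adjusted p of Ifit1 was 0.0537. With the presence of intestinal transcripts as a term they numbered 9.

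The mitochondrially encoded genes were lower, more so against the 3 control libraries that held intestinal transcripts than against the other controls. Of 13, 6 were lowered (mt-Atp6, mt-Co2, mt-Co3, mt-Nd5, mt-Nd2 and mt-Nd1) and 0 raised, with a median log2 change of -0.33. Their share of all counts was 0.580%, 0.475%, 0.605%, 0.562% and 0.548% in combination libraries 1 to 5. It was 0.816%, 0.745%, 0.642%, 0.620% and 0.561% in control libraries 1 to 5, where libraries 1 to 3 held intestinal transcripts. The values fell from control library 1 to 5, and library 3 lay close to library 4, so this split was not sharp. mt-Atp6, an ATP synthase subunit gene, had 279, 229.9, 279, 275 and 269 CPM in combination and 462, 403, 338, 321 and 334 CPM in control libraries, apart even from control libraries 4 and 5 (log2 change -0.48 ± 0.11, adjusted p = 0.00551). mt-Co2, a cytochrome oxidase subunit gene, showed the same order, with 290.2, 245, 302, 294 and 284 CPM in combination and 450.0, 407, 363, 320.2 and 339.8 CPM in control libraries (log2 change -0.41 ± 0.10, adjusted p = 0.00567). In the libraries without intestinal transcripts 0 of the 13 were called, and with the presence of these transcripts as a term 0 were called as well. Without control library 1 the lowered genes numbered 3, and without the 3 deepest combination libraries 1. Without control libraries 4 and 5 they numbered 9.

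Ribosomal protein genes showed small increases: 15 of 32 were raised and 0 lowered, with a median log2 change of 0.14. Rplp1, a protein of the ribosomal stalk, had 236, 239.8, 235, 245 and 253 CPM in combination and 207, 188, 197, 180.2 and 213 CPM in control libraries, above every control (log2 change 0.29 ± 0.06, adjusted p = 0.00139). The 15 became 9 without combination library 1 or 4 or control library 2, 8 in the 11 libraries without intestinal transcripts, and 1 without the 3 deepest combination libraries. Of 18 glucocorticoid-responsive genes, 2 were raised (Fkbp5 and Mt1) and 5 lowered (Nr3c1, Dusp1, Errfi1, Klf9 and Zbtb16), and 1 was raised without control library 4. Fkbp5, a chaperone gene induced by glucocorticoids, had 64.1, 68.4, 68.6, 53.3 and 57.7 CPM in combination and 47.8, 53.7, 40.7, 45.3 and 40.95 CPM in control libraries, overlapping at control library 2 (log2 change 0.45 ± 0.09, adjusted p = 0.00139). Nr3c1, the glucocorticoid receptor gene, had 88.3, 98.7, 97.4, 88.99 and 97.8 CPM in combination and 117, 124, 121, 136 and 129 CPM in control libraries, lower without overlap (log2 change -0.41 ± 0.07, adjusted p = 0.000652).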

How the data were processed

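Cortex RNA of 25 mice was sequenced, 5 per group, and 2 tables of the whole series were used. One holds the counts per gene that the authors deposited, and the other the authors' FPKM values of the same libraries. Reads were trimmed with Trim Galore and aligned with STAR to mm39, per the submitters' processing notes; versions, counting tool, strand setting and annotation were not given in the sources used here. Protocols in the labels name both a TruSeq V2 and a SMARTER kit. Of the counts from 4 to 39, 44.3% were multiples of 4 where 25% would fall so by chance, so precision may be lower than the counts imply. Of the genes listed, 2769 of 21720 were at 0 in every library.

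Groups were taken from the labels. Counts were scaled with TMM factors and tested in edgeR 4.0.16 (R 4.3.3) by the robust quasi-likelihood test, with 1 coefficient per group over all 25 libraries and filterByExpr at a minimum count of 10, which kept 16515 genes. A gene was called at a Benjamini-Hochberg adjusted p under 0.05 over all genes tested. Scores are the mean log2 CPM (prior count 2) of a list's tested members. Fold changes are log2, combination minus model control, with 95% intervals. The labels describe 5 mice a group and 1 library each, so p-values measure the spread between these libraries. Same-numbered libraries of the 2 groups did not deviate together. The procedure was tested on simulated counts.

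Alternatives were RLE factors, other filters, DESeq2 1.42.0, limma 3.58.1 with voom weights or on log2(FPKM + 0.1) and log2(FPKM + 1) with a mean FPKM of at least 0.5 or without that filter, a replicate block, region scores as covariates, and single libraries left out. Those on intestinal transcripts, wild type library 3 and leaving out the control libraries with choroid plexus markers were added after the data were seen. So were the joint hypothalamus and striatum covariates, and DESeq2 and limma-voom with the hypothalamus score. The members, lists and tests were chosen with earlier results of these data known. Genes named are the 6 markers, App and Prnp, the first 10 called genes by adjusted p in each direction (mean log2 CPM of at least 1, without predicted genes), and up to 3 members of each list with the smallest p; Oxt, Hcrt, Pmch, Ppp1r1b, Drd1, Drd2, Rhoa, Pvalb, Arc, Fos, Nr4a1, Egr1, Bdnf, Cst7, Trem2, Itgax, Gfap, Pomc, the intestinal genes and the members listed in brackets were chosen after their values were seen. A few genes that this rule names are not reported here. Promoters were read from RefSeq's table for GRCm38.p6, and gene positions are those of the deposited count table (mm39).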

Additional observations from a re-analysis of the deposited data

Results flagged for a closer look

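In groups of 5 libraries, a value was set apart where its gap to the nearest other value exceeded Dixon's 95% critical value, which chance alone passes in about 1 of 20 groups. Of 208 sets of 5 values examined, 11 had such a value. The sets share libraries and are not independent, so this count cannot be set against the share that chance gives. Control library 1 held 7 of the 11. Hap1 measured 119 CPM there, against 64.0 CPM in the next control library, and Zcchc12 83.7 CPM against 38.5 CPM. Vat1 measured 51.8 CPM against 40.9 CPM and Pdyn 49.9 CPM against 41.8 CPM. Nts measured 2.45 CPM against 0.514 CPM, and Pmch 1.26 CPM against 0.0861 CPM. Pak1 went the other way, at 389 CPM against 459 CPM in the next library. All 7 values lay on the side of the combination libraries, and control library 1 also had the highest hypothalamus score of the controls, 0.97. Hap1 and Zcchc12 are members of that score. Control library 5 stood apart from the other controls by its striatum score, 5.76 against 6.04.

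Among combination libraries, library 3 stood apart for Rgs6, at 71.4 CPM against 56.9 CPM in the next library, and library 2 for mt-Atp6, at 229.9 CPM against 269 CPM. Library 1 held 0.0503 CPM of Lypd8, an intestinal epithelium gene, while the other 4 held 0 CPM. Each of these values left its gene's call in place when the library was left out.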

How the results depend on the processing

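The count of called genes stayed within 1.5 times of 2471 under RLE factors (2488), no filter (2310), a stricter filter (2566), DESeq2 (2865), limma-voom (3153), the FPKM fits (2552, 2569 and 2523), counts divided by 4 (2660), and only the 10 libraries (2451). Leaving out each library in turn gave 1812 to 2588 genes, 936 to 1336 raised and 859 to 1252 lowered. Without the 3 deepest combination libraries 914 genes were called (514 raised and 400 lowered), and without control libraries 4 and 5 1035 were (525 and 510); both settings also compare fewer libraries. A fold change of at least 1.5 left 760 (437 and 323), and an unadjusted p under 0.05 gave 2386 and 2232 (4618 in all). With intestinal transcripts as a term 758 genes were lowered (1642 called in all). With the hypothalamus score as a covariate 0 were raised and 0 lowered, as with all 4 scores, with the hypothalamus and striatum scores, in limma-voom, and beside the intestinal term. DESeq2 with the hypothalamus score called 53 (7 raised and 46 lowered), and the striatum score left 145 (83 and 62). The replicate block over the shared replicate numbers called 2455 genes; same-numbered libraries did not correlate (-0.0466 to 0.005), so they share only a number, and 0 of 5 libraries correlated best with their own number. Among named genes the block ended the calls of Lpl and Pmch and added Prnp (adjusted p = 0.0493).

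Genes named as called changed direction only where a score or the intestinal term was in the model, or in the 11 libraries without intestinal transcripts, at adjusted p of 0.705 or more; the cause was not tested. Some of these genes belong to the feature in the model, so they are adjusted partly for their own level. Oxt and Hcrt are members of the hypothalamus score and Penk of the striatum score. Dmbt1 and Muc3 are among the genes that define the intestinal term. With the hypothalamus score Nrgn was at 0.00023, Oxt at -1.05 and Hcrt at -0.23, and in DESeq2 these were 0.0020, -1.99 and -2.79. In limma-voom with that score Nrgn was at 0.033, Oxt at -0.87, Hcrt at -1.63 and Pmch at -0.84. With the hypothalamus and striatum scores Gabrq was at -0.20, Nrgn at 0.016, Ryr3 at -0.085, Ryr2 at 0.0048, Oxt at -1.24 and Hcrt at -0.24. With 4 scores Penk was at -0.051, Tbr1 at 0.020, Gabrq at -0.16, Ryr3 at -0.072, C1s1 at 0.0031, Oxt at -1.04 and Hcrt at -0.65. With the intestinal term and the hypothalamus score Pak1 was at 0.0054, Snap25 at 0.011, Dusp5 at 0.035, Oxt at -3.55, Hcrt at -3.10, Dmbt1 at 0.52 and Muc3 at 0.64. The intestinal genes Dmbt1 and Muc3 were at 0.61 and 0.56 with the intestinal term alone, and Muc3 at 1.41 in the 11 libraries without these transcripts. Depth limits Hcrt, Pmch, Oxt and the intestinal genes, which lie near 3 counts in several libraries.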

Other observations

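Of 26 neuropeptide genes tested, 9 were raised and 5 lowered. The raised genes were Pdyn, Sst, Penk, Tac2, Tac1, Cartpt, Nts, Scg2 and Pcsk1n, and the lowered genes Vip, Pcsk1, Npy, Scg3 and Cck. The lowered genes numbered 2 or 3 without combination library 1, 3, 4 or 5 or control library 3, 4 or 5. Of 18 circadian clock genes (22.2% called), 0 were raised and 4 lowered (Hlf, Nr1d2, Bhlhe40 and Npas2), which became 1 without combination library 1 or 4, and 2 without combination library 5 or control library 2, 3, 4 or 5. Against 15.0% of all genes tested, the calls in housekeeping lists were 1 raised (Sdhb) of 28 genes of nuclear oxidative phosphorylation, 1 raised and 1 lowered of 26 proteasome genes, 3 lowered (Atf6, Atf4 and Edem1; 13.6%, where 7.13% of all genes were lowered) of 22 genes of the unfolded protein response, and 0 of 18 cholesterol synthesis genes. The unfolded protein response count became 1 without combination library 4 or control library 2 or 4. These lists were chosen with results of the data known.

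The 12 genes known from intestinal epithelium belong to no tissue named in the labels. Lypd8 measured 0.0503, 0, 0, 0 and 0 CPM in combination libraries 1 to 5, 2.58, 2.98, 3.10, 4.16 and 3.68 CPM in vestitol libraries, 6.80, 0, 0, 0 and 0 CPM in salviolone libraries, 6.00, 6.77, 7.95, 0.0514 and 0.0642 CPM in control libraries and 2.63, 3.88, 3.20, 3.45 and 7.87 CPM in wild type libraries. Salviolone library 1 and control libraries 1 to 3 thus resembled the vestitol and wild type libraries. Within groups, libraries with and without these transcripts differed in 10 of 16515 genes at an adjusted p under 0.05 (edgeR's quasi-likelihood test). Only the control group (3 with, 2 without) and the salviolone group (1 with, 4 without) inform this comparison. With so few libraries, a low count does not show that the sets differ little. Of the 12 genes, 8 were called lower in combination than in control libraries, a difference that follows the number of control libraries that held them.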
